A study of Mus musculus with 6 samples.

Results

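Capillary aerocytes, the endothelial cells that line the gas-exchange surface of the lung, were taken from single-cell RNA sequencing of whole mouse lung by a gate on Car4, a membrane carbonic anhydrase, and Ednrb, the endothelin receptor type B. A barcode was kept as a cell with at least 500 UMIs (unique molecular identifiers, each counting 1 captured RNA molecule), at least 300 genes and under 20% mitochondrial UMIs. A kept cell was gated as an aerocyte when at least 2 of the 7 endothelial genes Cdh5, Pecam1, Cldn5, Clec14a, Ptprb, Tspan7 and Egfl7 were detected and Car4 and Ednrb together had at least 2 UMIs. Cells with any UMI of the lymphatic genes Mmrn1 and Prox1, or of Cd3e, Cd79a, Marco and Col1a2, which mark T cells, B cells, alveolar macrophages and fibroblasts, were left out. The members were thus chosen by their own Car4, Ednrb and endothelial transcripts, whose levels are given as a description. The gate returned 574 aerocytes among 76800 kept cells. The comparison cells were the 2166 other vascular endothelial cells, which passed the same gate with Car4 and Ednrb both at 0 UMIs.

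The mice were male C57BL/6J, aged 12 weeks, and fell into 3 groups of 2 animals. The first received SLC activation 7 times plus LPS (SLC+LPS below), the second LPS alone at 1 mg/kg and the third PBS as control. LPS is lipopolysaccharide, the endotoxin of Gram-negative bacteria. The series title names the subcoeruleus nucleus of the brainstem and the labels write SLC-Gq. Neither the order nor the spacing of the activations and LPS is stated in the labels, and mice with the activation but no LPS were not analysed here. Lungs were collected on day 3, digested with enzymes and depleted of dead cells, and each mouse gave 1 BD Rhapsody library.

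Aerocytes are large, thin cells that lie against the alveolar epithelium, and they differ from general capillary cells, the smaller neighbouring cells that can proliferate and that carry the lipoprotein lipase anchor Gpihbp1. Their formation in the mouse depends on VEGF-A from the epithelium acting through its receptor Kdr. They make the peptide apelin, whose receptor Aplnr sits on general capillary cells. Like other endothelial cells they respond to interferons by raising antiviral GTPases and the machinery that loads peptides on MHC class I molecules.

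The gate yielded 45 and 15 aerocytes in the SLC+LPS mice, 41 and 115 in the LPS mice, and 196 and 162 in the controls. Before cells with Cd3e, Cd79a, Marco or Col1a2 were left out, these were 83 and 16, 49 and 135, and 328 and 265, in the same order. The part removed thus differed between libraries. Col1a2 was detected in 30 and 1, 7 and 16, and 112 and 87 of those cells. Their UMIs summed to 120067 and 29334 after SLC+LPS, 102844 and 475127 after LPS, and 354234 and 255716 in controls, and the median aerocyte held 1869 and 1433 UMIs after SLC+LPS, 1948 and 3823 after LPS, and 1567 and 1183 in controls. The smallest pool, replicate 2 of SLC+LPS, held 15 cells, and single UMIs move its levels. The largest single cell supplied 14.7% and 13.8% of the aerocyte UMIs after SLC+LPS, 19.6% and 2.38% after LPS, and 2.12% and 3.86% in controls. Levels below are in CPM, the UMIs of a gene summed over the aerocytes of a library and scaled to the same total in every library, given in the order replicate 1 and replicate 2. Median mitochondrial UMIs were 10.9% and 8.54% after SLC+LPS, 8.63% and 7.26% after LPS, and 12.9% and 12.4% in controls. No member barcode occurred in more than 1 library.

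The gated cells carried the aerocyte label by genes that the gate had not used. Fibin averaged 633 ± 424 CPM in aerocytes and 20.1 ± 18.4 CPM in the other vascular endothelial cells (SD over 6 libraries), a log2 fold of 5.07 (SE 0.22). The apelin gene Apln had 319 ± 185 CPM in aerocytes and 18.8 ± 7.43 CPM in the other vascular endothelial cells, a log2 fold of 4.42 (SE 0.23). Emp2, a tetraspan membrane protein, had 4351 ± 1597 CPM in aerocytes and 263 ± 105 CPM in the other vascular endothelial cells, with a log2 fold of 4.13 (SE 0.26). All 3 were higher in the aerocytes of 6 of 6 libraries, and so were Chst1 (log2 fold 4.42 (SE 0.31)), the transcription factor gene Tbx2 (3.58 (SE 0.25)), Igfbp7 (3.01 (SE 0.12)), Kdr (2.60 (SE 0.13)), Prx (1.98 (SE 0.20)), Cyp4b1 (1.95 (SE 0.13)) and Pmp22 (1.92 (SE 0.15)). Of the 15 genes listed as aerocyte markers, 4 did not show this: Hpgd (log2 fold -0.25 (SE 0.13), higher in 1 of 6 libraries), Nckap5 (-1.0 (SE 0.17), in 0), Cd24a (0.12 (SE 0.17), in 2) and Sirpa (0.42 (SE 0.22), in 5). The remaining marker, Rprml, was too low to test and was listed at 0 in the comparison cells.

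**Figure D1:**
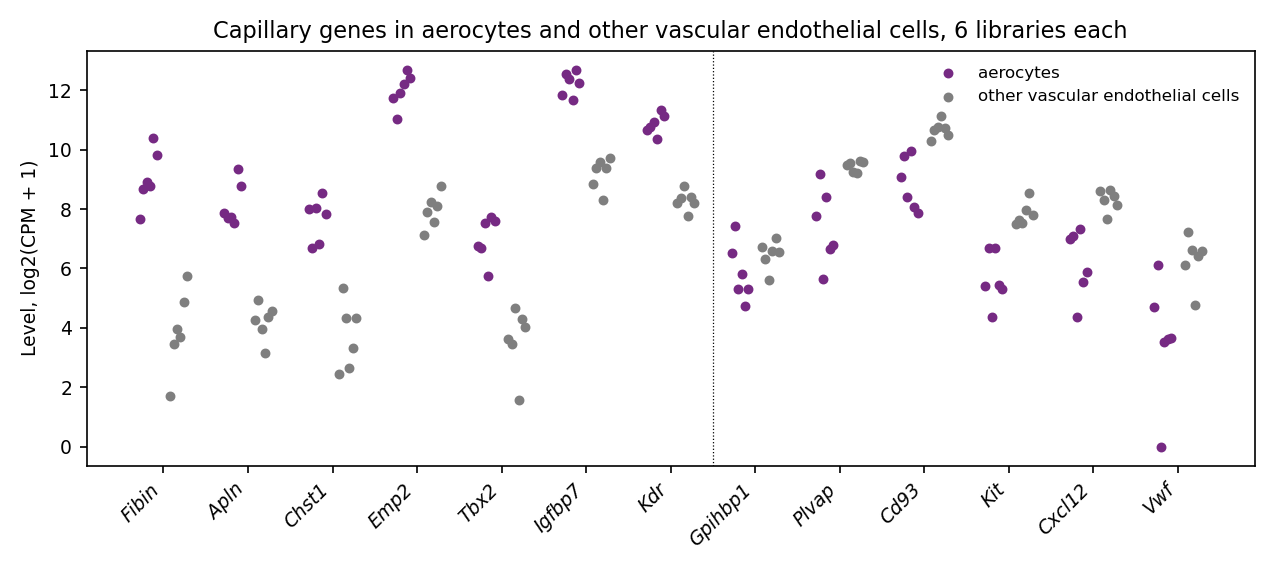
Levels of 7 aerocyte genes (left of the dotted line) and 6 genes of general capillary cells or veins (right of it) in aerocytes and in the other vascular endothelial cells, as log2(CPM + 1) of UMIs summed per library, 6 libraries each. Fibin, Apln, Chst1, Emp2, Tbx2, Igfbp7 and Kdr lay higher in the aerocytes of all 6 libraries, while Plvap, Cd93, Kit, Cxcl12 and Vwf lay lower in all 6 and Gpihbp1 in 5.

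Genes of the other vessel cells ran the opposite way. Plvap, which forms the diaphragms of fenestrae and caveolae, had 231 ± 199 CPM in aerocytes and 704 ± 86.8 CPM in the other vascular endothelial cells (log2 fold -1.96 (SE 0.44)). Cd93, Kit, the chemokine gene Cxcl12 and the large-vessel gene Vwf had log2 folds of -1.84 (SE 0.27), -2.12 (SE 0.24), -1.96 (SE 0.21) and -2.31 (SE 0.34), each lower in the aerocytes of 6 of 6 libraries. Gpihbp1 differed less, at -0.94 (SE 0.27), and was lower in 5 of 6. Other genes with the largest folds toward aerocytes were Tmeff2, Egflam, Pde8b, Slc22a23, Meox1 and Grb14, and toward the other cells Samd5, Fbln5, Hmcn1, Ptpn14, Crim1, Cadm1, Adam8, Rab27a and Ptgs2. In all, 1081 of 4783 genes (22.6%) passed an adjusted p of 0.05 in edgeR's quasi-likelihood test with library as a block, 485 higher (10.1%) and 596 lower (12.5%) in aerocytes; since the gate split these cells on their own transcripts, these counts describe the gate and nothing is read from them.

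Members near the edge of the gate and signs of other cells were measured before the groups were compared. Cells with exactly 2 UMIs of Car4 and Ednrb, the least that passed, numbered 11 and 5 after SLC+LPS, 10 and 30 after LPS, and 39 and 43 in controls. Vascular endothelial cells with 1 UMI, just outside, numbered 29 and 9 after SLC+LPS, 19 and 69 after LPS, and 121 and 67 in controls. Among T cells, which should lack both genes, 8.31% and 3.83% reached 2 UMIs after SLC+LPS, 2.96% and 0.685% after LPS, and 2.83% and 4.63% in controls. T cells held a median of 1697 to 2477 UMIs over the 6 libraries. Their share was below that of the vascular endothelial cells, 14.9% to 26.0%, in every library, and it was highest in SLC+LPS replicate 1. Alveolar macrophages also express Car4, and 1 to 10 members per library had over 1% of their UMIs from macrophage genes despite the absence of Marco. These cells held 24.0% and 13.8% of the member UMIs after SLC+LPS, 22.3% and 0.962% after LPS, and 11.8% and 24.1% in controls. The 10 macrophage and monocyte genes summed to 18132 and 6920.3 CPM after SLC+LPS, 17512 and 1303 CPM after LPS, and 5911 and 10449 CPM in controls. Pericyte and smooth muscle genes summed to at most 129 CPM and platelet genes to at most 59 CPM, and no gene of either list was high enough to test.

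Free RNA was estimated from barcodes under 100 UMIs and from lists of genes that other cell types make. The estimate was 17.7% and 26.1% of aerocyte UMIs after SLC+LPS, 22.5% and 10.1% after LPS, and 24.7% and 34.2% in controls. In the other vascular endothelial cells it was 48.7% and 55.8% after SLC+LPS, 29.8% and 36.7% after LPS, and 87.9% and 55.6% in controls. Without cells over 1% macrophage UMIs these were 33.1% and 37.2%, 27.3% and 12.7%, and 35.9% and 40.6%, in the same order. In control replicate 1 the lists behind the 87.9% ran from 22.8% for fibroblast genes to 108% for neutrophil genes. The estimate cannot tell free RNA from RNA of other cells in the pool. For the aerocyte genes Fibin, Apln, Emp2 and Kdr free RNA could give at most 1.05% of the mean level in any group, and for S100a8 all of it. For some genes below the expected percentage is given, and a gene without one is not thereby free of this source.

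Aerocytes made up a lower share of kept cells in every treated mouse than in either control. They made up 0.335% and 0.116% of kept cells after SLC+LPS, 0.299% and 0.991% after LPS, and 1.55% and 1.30% in controls. The means were 0.226 ± 0.155% after SLC+LPS, 0.645 ± 0.489% after LPS and 1.42 ± 0.173% in controls (SD, n = 2 each). The LPS mice spanned the widest range. Under a stricter cell filter (at least 1000 UMIs and 500 genes and under 10% mitochondrial UMIs) the shares were 0.177% and 0.145% after SLC+LPS, 0.229% and 0.904% after LPS, and 0.488% and 0.593% in controls, with LPS replicate 2 above both controls. That filter kept 18 and 11 aerocytes after SLC+LPS, 24 and 94 after LPS, and 33 and 40 in controls. The median mitochondrial UMIs of control aerocytes, 12.9% and 12.4%, lay above its 10% cut, as did the 10.9% of SLC+LPS replicate 1. An exact two-sided permutation test gave p = 0.333 for LPS against control and for SLC+LPS against control and p = 0.667 for SLC+LPS against LPS, where 0.333 is the smallest p that 2 against 2 mice allow. The denominator includes the leukocytes of the lung, so fewer aerocytes and more of other cells cannot be told apart.

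Within the vascular endothelium, aerocytes made up 15.8% and 15.6% of cells after SLC+LPS, 25.8% and 14.9% after LPS, and 17.5% and 26.0% in controls. The means were 15.7 ± 0.116% after SLC+LPS, 20.3 ± 7.71% after LPS and 21.8 ± 6.03% in controls (SD, n = 2 each). Both SLC+LPS mice lay below both controls, while the LPS mice overlapped with each of the other groups. The exact permutation p was 0.333 for SLC+LPS against control, 0.667 for LPS against control and 1 for SLC+LPS against LPS. Depth differed between libraries, so each cell was also thinned to 1000 UMIs, with shallower cells left out, which gave 13.0% and 15.4% after SLC+LPS, 20.3% and 6.46% after LPS, and 18.3% and 26.5% in controls. The difference of LPS from control, -1.45 percentage points, was 4.01 without LPS replicate 2 and 2.82 without control replicate 2, and that of SLC+LPS from LPS, -4.62, was 0.830 without LPS replicate 1. With the stricter cell filter, both treated groups averaged a higher share than controls, by 2.60 percentage points after SLC+LPS and 6.34 after LPS. The unequal loss of aerocytes to that filter, given above, applies to these shares too.

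**Figure D2:**
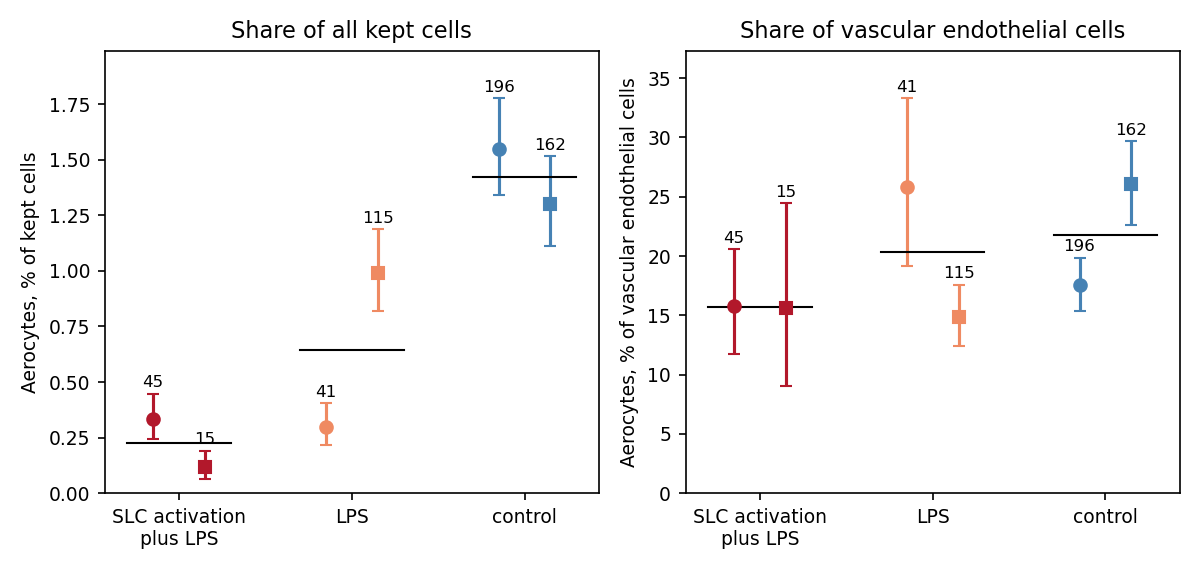
Aerocytes as a percentage of all kept cells and of vascular endothelial cells in each of the 6 mice; bars through the points are exact binomial 95% intervals, which cover the counting of cells only, the numbers above are the aerocytes counted, and circles and squares are replicates 1 and 2. Every treated mouse lies below both controls as a share of kept cells, from 0.116% to 0.991% against 1.30% and 1.55%, while the groups overlap as a share of the vascular endothelium except SLC+LPS with control.

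Car4 and Ednrb, which set the gate, were lower per aerocyte UMI in every treated mouse than in either control, as a description only. Car4 had 541 and 648 CPM after SLC+LPS, 496 and 267 CPM after LPS, and 816 and 712 CPM in controls. Ednrb had 1008 and 1534 CPM after SLC+LPS, 1177 and 966 CPM after LPS, and 2055 and 2002 CPM in controls. Both genes were detected together in 24 and 10 of the aerocytes after SLC+LPS, 25 and 65 after LPS, and 111 and 85 in controls. Cdh5, the gene of VE-cadherin, had 991 and 1091 CPM after SLC+LPS, 1177 and 903 CPM after LPS, and 1474 and 1149.7 CPM in controls, and Tspan7 had 3048 and 2761 CPM after SLC+LPS, 2266 and 4302 CPM after LPS, and 3458 and 2933 CPM in controls. LPS and control overlapped for both of these endothelial genes, and SLC+LPS and control overlapped for Tspan7.

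The response to LPS alone was led by interferon-induced genes and the MHC class I pathway. No gene passed an adjusted p of 0.05 in edgeR's quasi-likelihood test, 0 of 4098 (0%), and 337 genes (8.22%) had an unadjusted p under 0.05, 210 higher (5.12%) and 127 lower (3.1%). DESeq2 called 32 genes, 28 higher and 4 lower. The calls depended on the LPS pair, whose libraries differed the most: edgeR called 485 genes without LPS replicate 1 and 107 without LPS replicate 2, each time with the lone LPS mouse assumed to vary like the other groups. All values for single genes below are therefore levels and fold changes that did not pass the adjusted threshold, and p-values measure the spread between these mice only. The median log2 fold change over all genes was 0.03.

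Of 28 interferon-induced genes listed, 23 were high enough to test, and all 23 had a log2 fold change above 0 in LPS aerocytes, with a median of 3.14. Among them 18 had an unadjusted p under 0.05, against 5.12% of all genes in that direction, and 17 had both LPS libraries above both controls, against 15.2% of all genes. DESeq2 called 13 of the 23. Gbp2, an interferon-induced GTPase that acts against intracellular pathogens, had 258 and 1125 CPM after SLC+LPS, 904 and 1570.1 CPM after LPS, and 62.1 and 66.5 CPM in controls. LPS and control did not overlap, both LPS mice being more than 10 times the controls. The log2 fold change was 4.35 (SE 0.65), with an adjusted p of 0.118 in edgeR and 6.76e-07 in DESeq2, and the alternatives ranged over 7.49e-26 to 0.479.

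Igtp, another interferon-induced GTPase, had 158 and 477 CPM after SLC+LPS, 214 and 993 CPM after LPS, and 42.3 and 27.4 CPM in controls, a log2 fold change of 4.21 (SE 0.81). Replicate 2 of LPS was the highest library for Gbp2 and Igtp, and the LPS and control libraries did not overlap for either of them. Ifit3, which restricts viral RNA and is induced through type I interferon, had 117 and 642 CPM after LPS, against 19.8 and 39.1 CPM in controls, a log2 fold change of 3.87 (SE 0.79). Summed over the 28 genes, the list reached 2115 and 6682 CPM after SLC+LPS, 3889 and 17385 CPM after LPS, and 1457 and 1439 CPM in controls. Replicate 2 of LPS had the largest sum, more than 4 times that of replicate 1, and without it the list's median log2 fold change was 1.63, with 5 of 22 tested genes called.

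The promoters of Gbp2, Igtp, Ifit3 and H2-T23 are shown because they carry the DNA words through which interferon signalling is known to act. The sequences are from RefSeq, mouse build GRCm38.p6, within the 250 bases before each gene's start and read 5′ to 3′ on the gene's strand. Capitals mark matches, on either strand, to an interferon-stimulated response element written GAAANNGAAA or to a gamma-activated site written TTCNNNGAA.
Gbp2, chr3:142620569-142620648 (+ strand): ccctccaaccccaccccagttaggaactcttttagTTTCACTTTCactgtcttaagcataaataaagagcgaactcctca
Igtp, chr11:58199476-58199555 (+ strand): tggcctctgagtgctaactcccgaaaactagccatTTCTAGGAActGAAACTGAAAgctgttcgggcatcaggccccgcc
Ifit3, chr19:34583338-34583451 (+ strand): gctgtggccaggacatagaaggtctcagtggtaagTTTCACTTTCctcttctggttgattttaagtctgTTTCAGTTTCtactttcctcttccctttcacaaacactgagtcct
H2-T23, chr17:36032781-36032860 (- strand): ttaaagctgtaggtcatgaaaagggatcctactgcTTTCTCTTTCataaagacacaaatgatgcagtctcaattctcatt
In Igtp the first capital run is the gamma-activated site and the second the response element, without overlap; Ifit3 holds 2 response elements. Over the interferon list, 22 of 28 genes had a promoter in the table, matched by symbol, and 13 of these (59.1%) held GAAANNGAAA, against 936 of 27025 promoters of all genes (3.46%). TTCNNNGAA was found in 6 of 22 (27.3%), against 8.13% of all. Of the MHC class I list 2 of 11 promoters held GAAANNGAAA, those of B2m and H2-T23, and of the aerocyte marker list 0 of 12 did. A match is a description of the letters and not a binding site measured here, and the window's build differs from the GRCm39 named for the counts, so no position was carried over.

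MHC class I genes, which show peptides from inside the cell to CD8 T cells, were higher across the pathway after LPS. Of 13 genes listed, 11 were tested, and all 11 had log2 fold changes above 0, with a median of 1.56; 10 had an unadjusted p under 0.05, against 5.12% of all genes in that direction, and 10 had both LPS libraries above both controls, against 15.2% of all genes. H2-T23, the mouse Qa-1 molecule that engages inhibitory receptors of NK cells, had 58.3 and 102 CPM after SLC+LPS, 224 and 697 CPM after LPS, and 70.6 and 74.3 CPM in controls. The LPS aerocytes stood above both other groups without overlap, and the log2 fold change against control was 2.80 (SE 0.55). Tap1, a subunit of the peptide transporter, had 41.6 and 205 CPM after SLC+LPS, 165 and 379 CPM after LPS, and 19.8 and 39.1 CPM in controls, with a log2 fold change of 3.37 (SE 0.66). Tapbp, which links the transporter to class I molecules, had 516 and 716 CPM after SLC+LPS, 992 and 669 CPM after LPS, and 271 and 254 CPM in controls, with 1.72 (SE 0.37). Nlrc5, the transactivator of class I genes, had 87.5 and 154 CPM after LPS, against 25.4 and 11.7 CPM in controls, with 2.78 (SE 0.59); free RNA could give 29.4% of the LPS level and all of the control level.

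Cd274, which encodes the T cell inhibitor PD-L1 and is induced by interferon, had the smallest p of all genes. It stood at 142 and 307 CPM after SLC+LPS, 438 and 1227 CPM after LPS, and 73.4 and 86 CPM in controls, with no overlap between LPS and control. The log2 fold change was 3.49 (SE 0.56) and the adjusted p 0.118, and 0.0168 when members over 1% macrophage UMIs were left out, in a range over all alternatives of 3.50e-20 to 0.535. Expected free RNA was 17.5% of its LPS level and 74.4% of its control level.

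**Figure D3:**
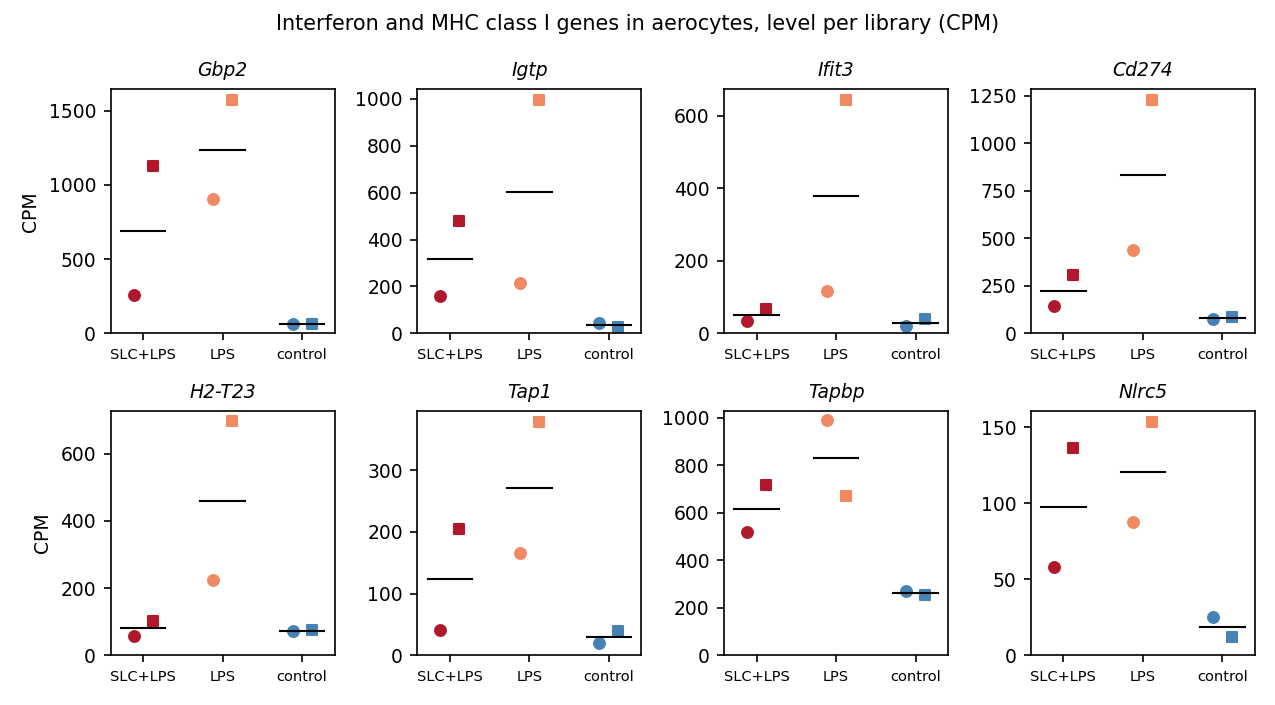
Levels of 8 interferon and MHC class I genes in the aerocytes of each mouse, in CPM of UMIs summed per library; circles are replicate 1, squares replicate 2 and the black line their mean. For each of the 8 genes both LPS libraries lie above both controls, and for Ifit3, Cd274 and H2-T23 both also lie above both SLC+LPS libraries.

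Interferon genes also stood higher after LPS in the other vascular endothelial cells. Fold changes of the other cells came from a fit of those cells alone. For aerocytes, the difference between the cell sets from the joint fit was added to them. Over the 28 interferon genes, the median log2 fold change of LPS against control was then 3.02 in aerocytes and 2.48 in the other cells. Over 12 MHC class I genes it was 1.65 and 1.76. In edgeR 0 interferon and 0 class I genes passed the test of the difference between the cell sets, and 5 and 1 had an unadjusted p under 0.05; in DESeq2 no gene passed it. For Gbp2 that difference was 0.77 (SE 0.35) and for Cd274 0.29 (SE 0.38).

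Most genes listed as aerocyte markers had log2 fold changes below 0 after LPS, and no gene passed the adjusted threshold. Of 15 listed, 14 were tested and 13 had a log2 fold change below 0, with a median of -0.38. The 14 include Hpgd, Nckap5, Cd24a and Sirpa, which did not mark the gated cells above. The median was -0.14 without control replicate 1 and -0.57 without control replicate 2. At an unadjusted p under 0.05, 2 were lower, against 3.1% of all genes. Estimated as for the interferon genes, the median over 12 was -0.21 in aerocytes and -0.12 in the other vascular endothelial cells. The difference between the cell sets had an unadjusted p under 0.05 for 2 of the 12, and 0 passed. Fibin had 199.9 and 409 CPM after SLC+LPS, 486 and 436 CPM after LPS, and 1358 and 907 CPM in controls. Both LPS libraries were below both controls, by a log2 fold change of -1.22 (SE 0.39) and an adjusted p of 0.334. Apln had 233 and 205 CPM after SLC+LPS, 214 and 183 CPM after LPS, and 646 and 434 CPM in controls, with all 4 treated libraries below both controls. Its log2 fold change after LPS was -1.38 (SE 0.39) (adjusted p = 0.23).

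The tetraspan gene Emp2 had 3423 and 2079.5 CPM after SLC+LPS, 3841 and 4721 CPM after LPS, and 6634 and 5408 CPM in controls, a log2 fold change of -0.41 (SE 0.34) after LPS. Kdr had 1954 and 1311 CPM after LPS, against 2555 and 2225 CPM in controls, a log2 fold change of -0.48 (SE 0.32), and Tbx2 185 and 52.6 CPM after LPS, against 212 and 192 CPM in controls, with -0.88 (SE 0.54). The LPS libraries lay below the controls in each, and the folds were within about 2 standard errors of 0. Chst1 (-0.70 (SE 0.53)) and Pmp22 (-0.43 (SE 0.35)) were of the same sign. Without the 4 exclusion genes in the gate the list's median was 0.09, and with the stricter cell filter -0.03; Emp2 and Hpgd turned sign under both, Kdr under the first and Tbx2 under the second.

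Genes of general capillary cells had a median above 0 after LPS within the gated cells, but most overlapped with controls. Of 15 listed, 13 were tested and 11 had a log2 fold change above 0 after LPS, with a median of 0.73. At an unadjusted p under 0.05, 1 was higher, against 5.12% of all genes. Both LPS libraries lay above both controls for 2 of the 13, against 15.2% of all genes. Without LPS replicate 2 the median was -0.12 and 4 of the 13 were above 0, and without LPS replicate 1 it was 1.23. Estimated as for the interferon genes in both cell sets, the median over 13 was 0.74 in aerocytes and 0.03 in the other vascular cells. Cd93, a lectin-like receptor of endothelial cells, had 541 and 886 CPM after SLC+LPS, 340.3 and 993 CPM after LPS, and 268 and 235 CPM in controls. The 4 treated libraries lay above both controls, and the log2 fold change after LPS was 1.52 (SE 0.49). Lyve1, a hyaluronan receptor of lymphatic vessels that lung capillaries also express, was listed with the lymphatic genes and not with these. It had 808 and 886 CPM after SLC+LPS, 389 and 634 CPM after LPS, and 347 and 258 CPM in controls, with 0.86 (SE 0.38) after LPS. The share of T cells at 2 Car4 and Ednrb UMIs, given above, was lowest in LPS replicate 2 and highest in SLC+LPS replicate 1; whether cells that are not aerocytes contributed to the general capillary levels was not tested.

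Genes that control clotting and fibrinolysis differed in part. Of 12 listed, 7 were tested, with a median log2 fold change of 0.70 after LPS and 3 higher at an unadjusted p under 0.05, against 5.12% of all genes. That median ranged over the alternatives from 0.011 at 3 UMIs of Car4 and Ednrb, with 0 genes at an unadjusted p under 0.05, to 1.85 with both genes detected. Plat, the tissue plasminogen activator, had 77.8 and 109 CPM after LPS, against 16.9 and 15.6 CPM in controls, a log2 fold change of 2.62 (SE 0.54). Plau, the urokinase plasminogen activator, had 91.6 and 136 CPM after SLC+LPS, 914 and 181 CPM after LPS, and 172 and 129 CPM in controls, and its fold of 1.86 (SE 0.66) rested mostly on LPS replicate 1. Thbd, the gene of thrombomodulin, which turns thrombin into an anticoagulant signal, had 1069.6 and 804 CPM after LPS, against 1671 and 1279 CPM in controls, a log2 fold change of -0.58 (SE 0.36).

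Timp3, an inhibitor of matrix metalloproteases that also blocks VEGF binding to Kdr, showed little spread within groups. It had 2457 and 2864 CPM after SLC+LPS, 2859 and 3273 CPM after LPS, and 1313 and 1365 CPM in controls. All 4 treated libraries lay between 2457 and 3273 CPM, above both controls, and the log2 fold change after LPS was 1.28 (SE 0.30) (adjusted p = 0.14). The basement membrane and matrix list that holds it had a median of 0.16 over 12 tested genes. At an unadjusted p under 0.05, 2 were higher and 1 lower, against 5.12% and 3.1% of all genes.

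**Figure D4:**
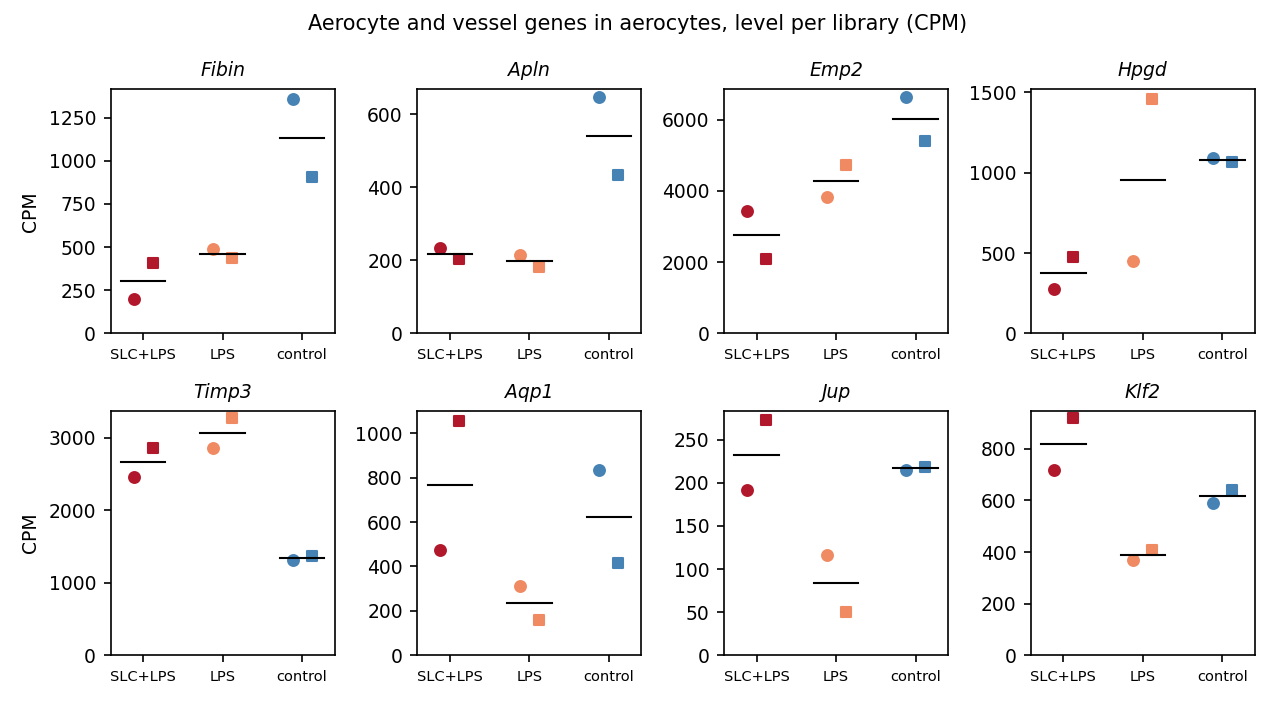
Levels of 8 genes of aerocyte identity and vessel function in the aerocytes of each mouse, in CPM of UMIs summed per library; circles are replicate 1, squares replicate 2 and the black line their mean. Fibin and Apln lie lower in all 4 treated libraries than in controls, Timp3 higher in all 4, and Aqp1, Jup and Klf2 lowest after LPS.

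Junction, transport and flow genes gave smaller values. Jup, which encodes the junction protein plakoglobin, had 192 and 273 CPM after SLC+LPS, 117 and 50.5 CPM after LPS, and 215 and 219 CPM in controls; LPS was below both other groups, with -1.45 (SE 0.48) against control. Its list of 12 junction and barrier genes had 9 tested and a median of -0.12. The water channel gene Aqp1 had 475 and 1057 CPM after SLC+LPS, 311 and 158 CPM after LPS, and 833 and 415 CPM in controls, again lowest after LPS (-1.39 (SE 0.51)), in a list of 14 caveola and lipid transport genes with a median of -0.34. Klf2, a transcription factor that laminar flow induces, had 716 and 920.4 CPM after SLC+LPS, 369 and 408 CPM after LPS, and 590.0 and 641 CPM in controls, a log2 fold change of -0.57 (SE 0.34) after LPS. The leukocyte adhesion list had 8 of 13 genes tested and a median of -0.29; its member Icam1, the ligand of leukocyte integrins, had 399 and 2921 CPM after LPS, against 240.0 and 415 CPM in controls, so that the fold of 2.46 (SE 0.83) came from replicate 2 and the groups overlapped.

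The list of BMP and TGF-β signalling genes had 10 of 13 tested genes below 0 after LPS. BMP signalling maintains the resting endothelium. The median was -0.33, and -0.13 without LPS replicate 1. Log2 fold changes ran from -1.20 to 6.42. At an unadjusted p under 0.05, 2 genes were higher and 2 lower, against 5.12% and 3.1% of all genes. Both LPS libraries lay below both controls for 3 of the 13, against 22.8% of all genes. They lay above both controls for 2, against 15.2% of all genes. Tmem100 had 583 and 671 CPM after LPS, against 1299 and 1040.2 CPM in controls, a log2 fold change of -0.81 (SE 0.34), and Smad6, an inhibitor of the pathway, 126 and 98.9 CPM after LPS, against 285 and 250.3 CPM in controls, with -1.20 (SE 0.44); neither overlapped. Tsc22d3, a glucocorticoid-induced gene that encodes GILZ, had 156 and 183 CPM after LPS, against 463 and 372 CPM in controls, a log2 fold change of -1.20 (SE 0.44). Its list of 13 glucocorticoid-related genes had 12 tested and a median of -0.15. At an unadjusted p under 0.05, 1 was higher and 3 lower, against 5.12% and 3.1% of all genes. Ankrd37, a target of the hypoxia factor HIF-1, had 58.3 and 118 CPM after LPS, against 5.65 and 7.82 CPM in controls, a log2 fold change of 3.82 (SE 0.78), and Vegfa 117 and 202 CPM after LPS, against 67.8 and 19.6 CPM in controls, with 1.95 (SE 0.73). Over the hypoxia and glycolysis list 12 of 15 tested genes were above 0, with a median of 0.88. At an unadjusted p under 0.05, 3 were higher, against 5.12% of all genes. The median was 0.17 with both Car4 and Ednrb detected and 0.17 under the stricter cell filter.

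Among inflammatory genes, 20 of the 30 listed NF-κB-related genes were tested, with a median of 0.69 after LPS. At an unadjusted p under 0.05, 8 were higher and 1 lower, against 5.12% and 3.1% of all genes. The median was 0.34 without control replicate 1 and 1.22 without control replicate 2. Several are made chiefly by myeloid cells and carry a large free RNA share. Il1b, the interleukin-1β gene, had 1478 and 1318 CPM after LPS, against 429 and 442 CPM in controls, a log2 fold change of 1.76 (SE 0.33), and free RNA could give 63.4% of the LPS and 97.9% of the control level. Cd14, the LPS co-receptor, had 515 and 522 CPM after LPS, against 113 and 164 CPM in controls (1.99 (SE 0.38)), with 47.5% and 88.3%. The neutrophil gene S100a8, which encodes a calcium-binding protein, had 379 and 532 CPM after LPS, against 138 and 86 CPM in controls, all of which free RNA could give. The neutrophil list had a median of 1.74, with 5 of 8 tested genes higher at an unadjusted p under 0.05, against 5.12% of all genes.

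A further 3 of the 10 genes with the smallest p after LPS are known from monocytes or fibroblasts. The monocyte gene Ly6c2 had 331 and 558 CPM after LPS, against 31.1 and 23.5 CPM in controls, with 4.09 (SE 0.73) and 35.2% expected from free RNA after LPS. The chemokine gene Ccl7 had 9.72 and 6.31 CPM after LPS, against 181 and 89.9 CPM in controls, with -4.09 (SE 0.73). The fibroblast gene Inmt had 0 and 21 CPM after LPS, against 200.4 and 289 CPM in controls, with -3.80 (SE 0.67), and the fibroblast list, on whose member Col1a2 the gate excludes cells, had a median of -3.04 over 5 tested genes. The immediate early genes, which cell dissociation also induces, had a median of 0.64 after LPS over 16 tested, and of -0.05 without LPS replicate 2. Of the 16, 2 were higher at an unadjusted p under 0.05, against 5.12% of all genes. The part of these sources in the results above was not tested beyond the values given.

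SLC+LPS against LPS alone asked what the activation added to endotoxin, and most interferon and class I genes had lower levels than after LPS alone. No gene passed the adjusted threshold in edgeR, 0 of 4098 (0%), and 192 (4.69%) had an unadjusted p under 0.05, 79 higher (1.93%) and 113 lower (2.76%). DESeq2 called 0. Without LPS replicate 1 edgeR called 299 genes and without LPS replicate 2 it called 13. Of 23 interferon genes 22 had a log2 fold change below 0, with a median of -1.83. At an unadjusted p under 0.05, 8 were lower, against 2.76% of all genes. Both SLC+LPS libraries lay below both LPS libraries for 4 of the 23, against 14.6% of all genes, so most overlapped. Without LPS replicate 2 that median was -0.26, with 13 of 22 below 0. Over the class I list 10 of 11 were below 0, with a median of -0.72. At an unadjusted p under 0.05, 4 were lower, against 2.76% of all genes. Without overlap 4 of the 11 were lower, against 14.6% of all genes. The median over all genes was -0.05.

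H2-T23 had 58.3 and 102 CPM after SLC+LPS, against 224 and 697 CPM after LPS, with no overlap. Its log2 fold change was -2.79 (SE 0.66), with the smallest p of the comparison (adjusted p = 0.968 in edgeR). Its SLC+LPS levels came from pools of 120067 and 29334 UMIs and rest on few UMIs. Cd274 had a log2 fold change of -2.14 (SE 0.58) and Ifit3 of -3.28 (SE 0.94), each without overlap. Gbp2 (-1.06 (SE 0.59)) and Tap1 (-1.73 (SE 0.73)) overlapped, since replicate 2 of SLC+LPS, the pool of 15 cells, reached 1125 and 204.5 CPM. The sums of the interferon list overlapped too, at 2115 and 6682 CPM after SLC+LPS and 3889 and 17385 CPM after LPS. Plau and Ankrd37 were lower after SLC+LPS at -2.34 (SE 0.78) and -2.85 (SE 0.98), without overlap.

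Aqp1, Jup and Klf2, which were lowest after LPS, had higher levels after SLC+LPS, while their lists had medians near 0 or below it. The caveola and lipid transport list had a median of 0.06, with 7 of 14 genes above 0. The junction and barrier list had -0.19, with 3 of 9 above 0, and the genes induced by flow -0.07, with 2 of 7. Of all genes, 15.1% were higher than after LPS without overlap. Aqp1 had 475 and 1057 CPM after SLC+LPS, against 311 and 158 CPM after LPS, a log2 fold change of 1.62 (SE 0.53). Jup was 1.50 (SE 0.53) and Klf2 0.98 (SE 0.35), each without overlap. These comparisons share the LPS libraries with the comparison against control, so their opposite signs are not independent of each other. Aerocyte markers had a median of -0.11 over 14 tested genes, 9 below 0, with Fibin at -0.77 (SE 0.44), Emp2 at -0.68 (SE 0.35) and Hpgd, which encodes the enzyme that inactivates prostaglandins and is a marker shared with the other cells here, at -1.52 (SE 0.55). Timp3 was -0.28 (SE 0.30), with overlap.

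Other genes among the 10 smallest p were Cd81 (log2 fold change 2.31 (SE 0.55)), Cd302 (2.72 (SE 0.68)), the linker histone gene H1f2 (1.94 (SE 0.51)), Fn1, the fibronectin gene (2.36 (SE 0.64)), Col19a1 (2.03 (SE 0.55)), and the chemokine genes Cxcl1 (-2.35 (SE 0.61)) and Ccl5 (-3.51 (SE 0.94)). Free RNA could give 79.3% of the SLC+LPS level of Fn1 and 58.3% of the LPS level of Ccl5. The neutrophil list had a median of 0.15, the macrophage and monocyte list 0.17.

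The β1 adrenergic receptor gene Adrb1, whose product responds to noradrenaline from sympathetic nerves, had 142 and 170.5 CPM after SLC+LPS, 399 and 56.8 CPM after LPS, and 257 and 219 CPM in controls. The LPS mice lay farthest apart, on either side of all the other mice, so that the groups overlapped. Of the adrenergic and cyclic AMP list 7 of 17 genes were tested, with medians of 0.12 against LPS and 0.17 against control. At an unadjusted p under 0.05, 1 gene was higher than after LPS, against 1.93% of all genes. The glucocorticoid receptor gene Nr3c1 had 149.9 and 102 CPM after SLC+LPS, 107 and 175 CPM after LPS, and 167 and 168 CPM in controls, also with overlap. Adrb1 and Nr3c1 fell outside the rule for naming genes and were chosen after their values were seen.

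After SLC+LPS most listed aerocyte markers had log2 fold changes below 0 against controls, and most interferon genes above 0. No gene passed in edgeR, 0 of 4098 (0%), 281 (6.86%) had an unadjusted p under 0.05, 152 higher (3.71%) and 129 lower (3.15%), and DESeq2 called 18, 17 higher and 1 lower. The LPS libraries share in the pooled spread of this fit, and 120 genes passed without LPS replicate 1 and 116 without LPS replicate 2. With libraries that did not overlap, 814 genes (19.9%) were higher and 949 (23.2%) lower. The aerocyte list had 12 of 14 genes below 0, a median of -0.61 and 5 lower at an unadjusted p under 0.05, against 3.15% of all genes. For 9 of the 14 both SLC+LPS libraries lay below both controls, against 23.2% of all. Estimated as for the interferon genes, the median over 12 was -0.73 in aerocytes and -0.50 in the other vascular endothelial cells. The difference between the cell sets had an unadjusted p under 0.05 for 4 of the 12, and 0 passed.

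Fibin had 199.9 and 409 CPM after SLC+LPS, against 1358 and 907 CPM in controls, a log2 fold change of -2.0 (SE 0.43) (adjusted p = 0.386), which was among the 10 smallest p. Emp2 followed at -1.08 (SE 0.35), Apln at -1.24 (SE 0.42) and Cyp4b1, a cytochrome P450 gene of the lung, at -0.84 (SE 0.34). Hpgd, a listed marker that did not mark the gated cells here, had -1.58 (SE 0.55). In each of these 5 genes both SLC+LPS libraries lay below both controls.

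Of 13 general capillary genes 12 were above 0, with a median of 0.52 and 4 higher at an unadjusted p under 0.05, against 3.71% of all genes. The median was -0.27 without SLC+LPS replicate 1, with 5 of 13 above 0, and -0.04 under the stricter cell filter and 0.02 without the exclusion genes. Genes of veins stood apart in the pool of 15 cells: the 7 listed summed to 149.9 and 1705 CPM after SLC+LPS, 38.9 and 170.5 CPM after LPS, and 344 and 235 CPM in controls in aerocytes, and to 557 and 897 CPM after SLC+LPS, 909 and 889 CPM after LPS, and 1026 and 1594 CPM in controls in the other vascular cells. Estimated as for the interferon genes after LPS, the vein median was 1.48 in aerocytes and -1.05 in the other cells. In the joint fit 5 of 7 had an unadjusted p under 0.05 for the difference. The part of vein cells in the general capillary levels was not tested. Gpihbp1 had 91.6 and 170.5 CPM after SLC+LPS, 38.9 and 54.7 CPM after LPS, and 25.4 and 39.1 CPM in controls, a log2 fold change of 1.88 (SE 0.61) after SLC+LPS. Plvap had 217 and 579.5 CPM after SLC+LPS, 48.6 and 335 CPM after LPS, and 98.8 and 109 CPM in controls, with 1.80 (SE 0.79), and Cd93 was 1.47 (SE 0.51). Both SLC+LPS libraries exceeded both controls for the 3 genes. Outside that list, Lyve1 was 1.49 (SE 0.40) and Timp3 1.00 (SE 0.30), also without overlap. The interferon list had a median of 1.47, with Gbp2 at 3.29 (SE 0.65) and Igtp at 2.97 (SE 0.86). At an unadjusted p under 0.05, 7 of its 23 genes were higher, against 3.71% of all genes. The class I median was 1.01. Without SLC+LPS replicate 2 these medians were 0.65 and 0.49.

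Most of the other genes among the smallest p are known from myeloid cells. Il1b was 2.26 (SE 0.33) with an adjusted p of 0.121, Cd14 2.26 (SE 0.40), Itgam 3.72 (SE 0.72), Ly6i 5.46 (SE 0.99), Clec4e 2.31 (SE 0.49), S100a8 1.96 (SE 0.44) and Acod1 2.75 (SE 0.63). Free RNA could give all of the SLC+LPS level of S100a8 and Acod1 and 30.3% to 48.3% of the others. The neutrophil list had a median of 1.65 and the macrophage and monocyte list 0.09. Whether RNA of these cells contributed to other genes was not tested.

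Where aerocytes and the other vascular endothelial cells answered differently was tested as the difference between the cell sets in the same libraries. Of 6639 genes, 8 (0.121%) passed for LPS against control, 7 (0.105%) for SLC+LPS against LPS and 18 (0.271%) for SLC+LPS against control. With expected free RNA subtracted from both cell sets the counts were 0, 0 and 0. That subtraction used the higher estimates, with macrophage-rich cells kept in. DESeq2 called 0, 3 and 2. Leaving out single libraries gave 4 (without SLC+LPS replicate 2) to 62 (without LPS replicate 1), 1 (without SLC+LPS replicate 1) to 23 (without LPS replicate 1) and 6 (without SLC+LPS replicate 2) to 35 (without LPS replicate 2). Of the 33 differences called, 2, both of Cxcl1, passed in every fit that left out 1 library, and 31 did not pass in at least 1 such fit. The differences below rose or fell in aerocytes relative to the other cells; each is a log2 difference of fold changes from edgeR's quasi-likelihood test.

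After SLC+LPS against control, Timp3 rose in aerocytes relative to the other cells. The aerocyte levels are given above, and in the other cells Timp3 had 781 and 966 CPM after SLC+LPS, 1087 and 1990.2 CPM after LPS, and 1089 and 1451 CPM in controls, with both SLC+LPS libraries below both controls. The difference was 1.33 (SE 0.30, adjusted p = 0.016). Sema3c, a guidance cue of vessels, had 558 and 307 CPM after SLC+LPS, 253 and 562 CPM after LPS, and 325 and 199 CPM in controls in aerocytes and 406 and 448 CPM after SLC+LPS, 710.5 and 1239.8 CPM after LPS, and 1317 and 831 CPM in controls in the other cells. Its difference was 2.03 (SE 0.37, adjusted p = 0.000621). In the other cells both SLC+LPS libraries were below both controls, whereas in aerocytes the groups overlapped.

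Adamts1, a matrix protease, had 325 and 1023 CPM after SLC+LPS, 117 and 665 CPM after LPS, and 136 and 89.9 CPM in controls in aerocytes and 515 and 488 CPM after SLC+LPS, 387 and 1157 CPM after LPS, and 433 and 593 CPM in controls in the other cells. The difference was 2.02 (SE 0.43, adjusted p = 0.0256), and the aerocyte levels of SLC+LPS lay above those of controls. Cd93 differed by 1.37 (SE 0.34, adjusted p = 0.04), Lyve1 by 1.39 (SE 0.34, adjusted p = 0.034) and Vegfc, the growth factor of lymphatic vessels, by 3.35 (SE 0.83, adjusted p = 0.04). Marcks, an actin-binding protein gene, fell relative to the other cells, with a difference of -1.26 (SE 0.31, adjusted p = 0.0431). Pmaip1, the apoptosis gene that encodes NOXA, did so with -2.64 (SE 0.60, adjusted p = 0.0305). Without the macrophage-rich members the adjusted p was 0.0445 for Timp3, 0.000332 for Sema3c, 0.00229 for Adamts1, 0.0106 for Lyve1, 0.000873 for Marcks and 0.0765 for Cd93. Leaving out single libraries gave 0.000233 to 0.772 for Timp3, 1.06e-06 to 0.744 for Sema3c, 5.74e-05 to 0.732 for Adamts1, 0.00164 to 1 for Lyve1, 0.00287 to 1 for Marcks, 0.0233 to 0.513 for Vegfc, 0.000276 to 0.978 for Pmaip1 and 0.00323 to 0.659 for Cd93.

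For LPS alone against control, Plau rose in aerocytes relative to the other cells by 2.31 (SE 0.41, adjusted p = 0.00133). The other cells had 47.4 and 129 CPM after SLC+LPS, 72.5 and 41.2 CPM after LPS, and 105 and 145 CPM in controls, so that LPS lay below both controls there. Hoxa5, a homeobox gene of lung patterning, had 91.6 and 273 CPM after SLC+LPS, 107 and 114 CPM after LPS, and 64.9 and 50.8 CPM in controls in aerocytes and 257 and 319 CPM after SLC+LPS, 237 and 124 CPM after LPS, and 303 and 319 CPM in controls in the other cells, a difference of 1.87 (SE 0.43, adjusted p = 0.0372). The LPS and control libraries did not overlap in either cell set, with opposite directions. Phlda1 passed in both comparisons of SLC+LPS. It had 292 and 341 CPM after SLC+LPS, 661 and 886 CPM after LPS, and 455 and 532 CPM in controls in aerocytes and 718 and 428 CPM after SLC+LPS, 329 and 402 CPM after LPS, and 213 and 279.5 CPM in controls in the other cells. The difference was -2.16 (SE 0.38, adjusted p = 0.000288) against LPS and -2.17 (SE 0.38, adjusted p = 0.000203) against control. Without the macrophage-rich members the second was -1.23 and did not pass (adjusted p = 0.317), while the first did (adjusted p = 0.0197). Leaving out single libraries gave adjusted p of 1.88e-06 to 0.135 for Plau, 0.00103 to 0.944 for Hoxa5, and 8.19e-05 to 0.588 against LPS and 2.01e-07 to 0.357 against control for Phlda1.

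**Figure D5:**
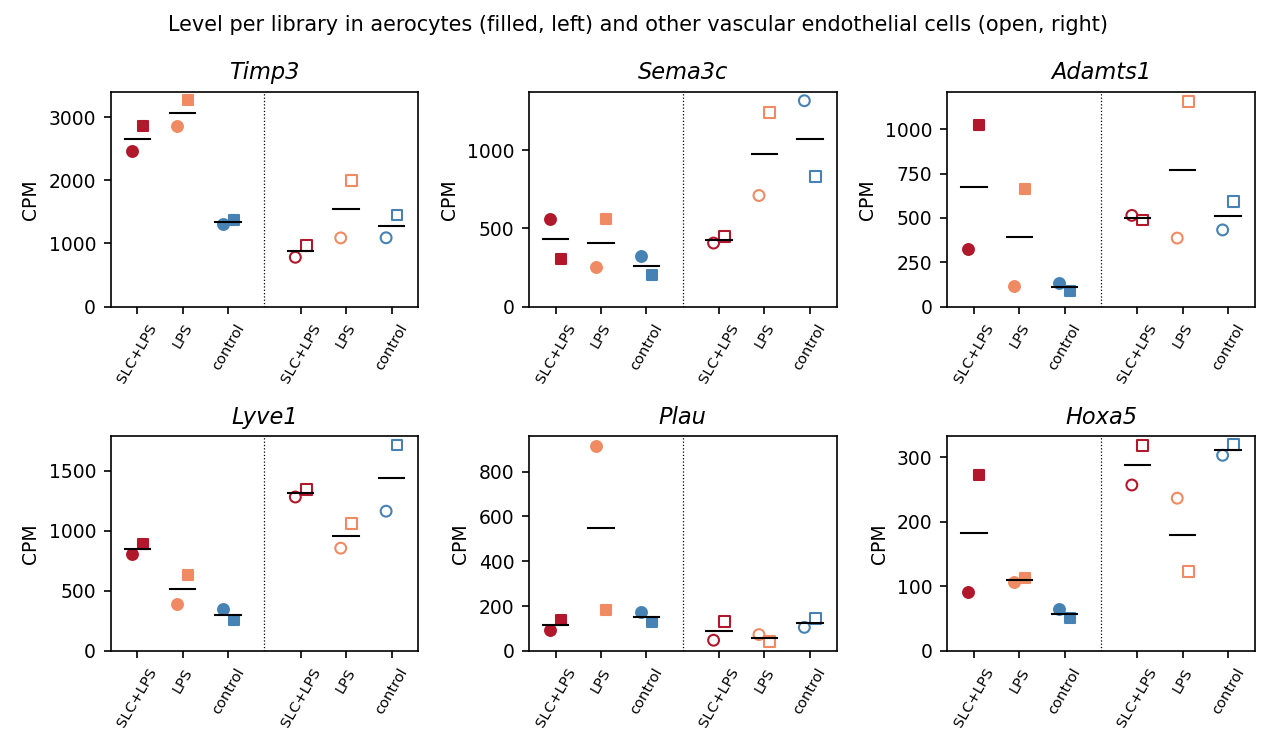
Levels of 6 genes in aerocytes (filled, left of each pair) and in the other vascular endothelial cells (open, right of each pair) of each mouse, in CPM of UMIs summed per library; circles are replicate 1 and squares replicate 2. After SLC+LPS, Timp3, Adamts1 and Lyve1 lie above the controls in aerocytes and not in the other cells, and after LPS Hoxa5 lies above the controls in aerocytes and below them in the other cells.

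Several other differences that passed involved genes known from myeloid or airway cells. The chemokine gene Cxcl1 fell relative to the other cells, with a difference of -2.70 (SE 0.37, adjusted p = 1.86e-07) against LPS and -3.32 (SE 0.37, adjusted p = 4.08e-11) against control, and without the macrophage-rich members the adjusted p was 1 and 0.993. Tnf, Cxcl2, Ctss, Fth1 and Spp1 fell relative to the other cells in SLC+LPS against control and did not pass without those members, at adjusted p from 0.585 for Tnf to 1 for Spp1. Of the mean aerocyte level over the 6 libraries, free RNA could give 32.7% for Cxcl1, 33.3% for Tnf and 50.3% for Cxcl2. It could give 44.3% for Ctss, 35.2% for Fth1 and 46.2% for Spp1. Bpifa1 and Scgb3a2, secreted by airway cells, had 0 to 156 CPM in aerocytes, and free RNA could give 97.2% and all of it.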

How the data were processed

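The authors deposited, for each library, a matrix of whole-number UMI counts of genes by barcodes. The aligner and counter are not given in the sources used here; per the submitters' processing notes the genome builds were GRCm39 and mm39. The matrices are unfiltered, with 165547 to 253281 barcodes and 31589233 to 48641470 UMIs per library, of which 11608 to 13710 barcodes were kept as cells. The members and the gene lists were chosen with earlier results of these data known.

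UMI counts of the aerocytes were summed per library, so mice and not cells are the replicates. Sums were tested with edgeR 4.0.16 (R 4.3.3; TMM scaling, filterByExpr with a minimum count of 10, robust quasi-likelihood F test), all 6 libraries in 1 fit with group as the only term, and p-values were adjusted by Benjamini-Hochberg over all genes tested at a threshold of 0.05. Aerocytes and other vascular endothelial cells were fitted together with library as a block, and the difference between their responses was the class by group term. The gate genes were left out of all tests. Shares of cells were compared with an exact two-sided permutation test and carry exact binomial 95% intervals, which cover counting error only. Doublets were scored with Scrublet in scanpy 1.11.5 and kept in; an alternative left out the 6% of barcodes scoring highest in each library. DESeq2 1.42.0 was another. Members with over 1% macrophage UMIs were left out in an alternative chosen after seeing the data. Aerocyte mixtures with other cells were not modelled beyond a subtraction of expected free RNA, the median over 7 lists of other cell types of observed over expected level, using barcodes under 100 UMIs.

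On counts simulated from these libraries for LPS against control over 4098 genes, edgeR recovered 14.3%, 70.3% and 87.5% of genes changed by 1, 2 and 3 on the log2 scale at a dispersion of 0.1, and 0%, 5.8% and 25.4% at 0.3.

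Named genes were the largest changes among those that passed (at least 50 CPM in the higher group, no overlap of the libraries), else the 10 smallest p, with all members of the aerocyte and general capillary lists considered and up to 4 of each other list by p in LPS against control. A few genes that the rule would name are not reported here.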

Additional observations from a re-analysis of the deposited data

Results flagged for a closer look

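The results given here were picked out because aerocytes and the other vascular endothelial cells of the same libraries responded differently, by edgeR's test of that difference over 6639 genes. Each value is a log2 difference of fold changes, positive where aerocytes were higher relative to the other cells.

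For LPS against control the difference was 2.31 for Plau, 1.87 for Hoxa5 and 4.35 for Pdpn. Podoplanin, the product of Pdpn, marks lymphatic vessels and alveolar type 1 cells, and the gene was at 0 in 2 of the 6 aerocyte sums. The difference was -7.55 for Bpifa1, -6.36 for Scgb3a2, -2.25 for Fpr1, -2.21 for Pik3ap1 and -2.29 for Tnf. Without the macrophage-rich members Fpr1 was 0.26 and did not pass (adjusted p = 0.981), nor did Pik3ap1 (adjusted p = 0.957) or Pdpn (3.99, adjusted p = 0.384). Free RNA could give all of the mean aerocyte level of Pik3ap1, 41.8% of that of Pdpn and 31.9% of that of Fpr1.

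For SLC+LPS against LPS the difference was 1.79 for Ly6i, -2.70 for Cxcl1, -2.16 for Phlda1, -3.23 for Pdpn and -7.87 for Mmp12. Without the macrophage-rich members Ly6i (1.36, adjusted p = 0.706), Cxcl1 (-0.70, adjusted p = 1) and Pdpn (-1.89, adjusted p = 1) did not pass, and Mmp12 was too low to test. The haemoglobin genes Hba-a1 and Hbb-bs had 13.34 and 13.25. Hbb-bs had 441 CPM in aerocytes of SLC+LPS replicate 1 and at most 78.2 CPM in those of any other mouse. In the other vascular cells it had 2.26 and 0 CPM after SLC+LPS, and 633 and 0 CPM after LPS.

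For SLC+LPS against control, the positive differences were 2.03 for Sema3c, 2.02 for Adamts1, 1.39 for Lyve1, 1.37 for Cd93, 1.33 for Timp3, 3.35 for Vegfc, 9.09 for Hba-a1 and 9.83 for Hbb-bs. The negative ones were -3.32 for Cxcl1, -3.31 for Spp1, -2.86 for Tnf, -2.64 for Pmaip1, -2.18 for Ctss, -2.17 for Phlda1, -1.34 for Cxcl2, -1.26 for Marcks, -1.13 for Fth1 and -4.10 for ENSMUSG00000120878. Without the macrophage-rich members ENSMUSG00000120878 was 0.53 (adjusted p = 1), and free RNA could give 75.8% of its mean aerocyte level. Over the 3 comparisons 15 of the 32 differences that could be tested without those members did not pass.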

How the results depend on the processing

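Depth and numbers limit these results: 15 cells in the smallest aerocyte pool, 2 mice a group, and libraries of a group that differed by more than counting noise, with a ratio of chi-square to degrees of freedom of 2.25 for SLC+LPS, 7.02 for LPS and 2.61 for control. Of 1705 recomputed values for 104 gene results, 1329 kept direction and side of the threshold, 161 came to pass it, 204 no longer passed and 11 changed sign. The causes of the changes below were not tested.

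Genes called in aerocytes for LPS against control (0) were 32 in DESeq2, 150 without the low-count filter, 19 without exclusion genes, 2 without members over 1% macrophage UMIs, 1 without the top doublet scores, and 0 to 485 leaving out single libraries. For SLC+LPS against LPS (0) they were 22 without the filter and 0 to 299 leaving out libraries; for SLC+LPS against control (0), 18 in DESeq2, 35 without the filter, 3 without exclusion genes and 0 to 120. The replicate numbers did not pair the mice: deviations of same-numbered libraries correlated at -0.0559 (SLC+LPS with control), 0.0687 (SLC+LPS with LPS) and -0.103 (LPS with control). With the replicate block 0, 0 and 9 genes passed in those comparisons.

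Genes called between aerocytes and other vascular cells (1081) were 131 with free RNA subtracted, 309 without the library block, 414 under the stricter filter and 643 to 1120 leaving out libraries. For the differing responses, LPS against control (8) had 0 in DESeq2, 0 with free RNA subtracted, 0 under the stricter filter, 3 at 3 UMIs, 5 with both genes detected, 13 without top doublet scores, 16 without the low-count filter, 25 without macrophage-rich members, 130 without exclusion genes and 4 to 62 leaving out libraries. SLC+LPS against LPS (7) had 3 in DESeq2, 0 with free RNA subtracted, 2 stricter, 69 without exclusion genes and 1 to 23; SLC+LPS against control (18) had 2, 0, 3, 55, 7 with both genes detected and 6 to 35.

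The aerocyte share of kept cells, LPS minus control (-0.779 percentage points), was 0.0260 under the stricter filter, -0.408 with both genes detected and -1.60 without exclusion genes, and -1.13 to -0.434 leaving out mice. SLC+LPS minus control (-1.20) was -0.932 at 3 UMIs, -0.651 with both genes, -0.379 stricter, -1.99 without exclusion genes, -0.957 thinned and -1.32 to -1.08 leaving out mice. SLC+LPS minus LPS ranged over -0.765 to -0.0735. As a share of vascular cells, LPS minus control was 0.273 with both genes, 6.34 stricter, -9.01 thinned and -6.90 to 4.01 leaving out mice; SLC+LPS minus LPS was 0.778 thinned and -10.1 to 0.830; SLC+LPS minus control was 2.60 stricter and -10.3 to -1.81.

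Signs turned for Emp2 in LPS against control (0.16 stricter, 0.13 without exclusion genes), Hpgd (0.016 without the low-count filter, 0.21 stricter, 0.32 without exclusion genes, and -1.25 to 0.59 leaving out libraries), Kdr (0.089 without exclusion genes) and Tbx2 (0.76 stricter), and for the differences of Fpr1 in LPS against control (0.26 without macrophage-rich members), Hbb-bs in SLC+LPS against LPS (-1.85 stricter), and Spp1 (3.23 with both genes detected, 0.22 without macrophage-rich members) and ENSMUSG00000120878 (0.63 and 0.53 in the same fits) in SLC+LPS against control. Leaving out 1 library turned the sign of the median of 12 of 26 gene lists in LPS against control, 18 of 26 in SLC+LPS against LPS and 11 of 26 in SLC+LPS against control.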

Other observations

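MHC class II genes, which vessels of the lung can show to CD4 T cells, had medians of -0.84 for SLC+LPS against control, -1.30 for SLC+LPS against LPS and 0.49 for LPS against control over 4 tested genes, and their sums were 258 and 1636 CPM after SLC+LPS, 2198 and 1433 CPM after LPS, and 1152 and 1662 CPM in controls. Alveolar type 1 genes, whose cells face aerocytes across a shared basement membrane, summed to 1857 and 2420.4 CPM after SLC+LPS, 2819.8 and 4672 CPM after LPS, and 4091 and 2507 CPM in controls in aerocytes, and in the other vascular cells to 510.0 and 1096 CPM after SLC+LPS, 1160.0 and 1889 CPM after LPS, and 1290.4 and 1244 CPM in controls. Aerocytes had the higher sum in each of the 6 libraries; the list holds 9 genes, of which 3 were tested between conditions, and Ager, its defining marker, was detected in at most 1.02% of the aerocytes of any library.

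The cell cycle list had 5 of 19 genes tested in aerocytes, with medians of -0.15 for SLC+LPS against control, 0.07 for SLC+LPS against LPS and 0.23 for LPS against control, and no gene with an unadjusted p under 0.05 in edgeR in any of the 3. The VEGF, Notch and angiopoietin list summed to 4997 and 4499.9 CPM after SLC+LPS, 5027 and 4763 CPM after LPS, and 6837 and 5956 CPM in controls, with medians of -0.05, -0.20 and -0.03 in the same comparisons over 12 tested genes. Endothelin and vasoactive genes had medians of 0.01, 0.00 and -0.20 over 9. Genes induced by flow had medians of -0.52, -0.07 and -0.47 over 7, and artery genes of -0.13, 0.35 and -0.01 over 3.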
